A study of Mus musculus with 5 samples.

Results

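The insulin-like growth factor (IGF) system was examined in the hippocampus of mice lacking the histone deacetylase gene *Hdac1* in the brain. Its 10 genes were the ligands *Igf1* and *Igf2*, the receptors *Igf1r* and *Igf2r*, and the binding proteins *Igfbp2* to *Igfbp7*, out of 23361 genes listed for every library. The family was chosen because *Igf2*, selected on its measured values in this same comparison, was higher in the mutant libraries. The question was whether the other 9 genes moved with it. The values of *Igf2* are therefore a description without a test. The other 9 genes were taken as members of the family, although their values were already known from earlier work on these data.

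Hippocampal RNA was sequenced from mice at 3 months of age. Control mice, labelled WT in the sample titles, carried the floxed allele without Cre recombinase (*Hdac1* f/f, n = 2). *Hdac1* cKO mice carried the same floxed allele with *Nestin-Cre* (*Hdac1* f/f, *Nestin-Cre*, n = 3), a transgene that the study describes as deleting *Hdac1* in neurons and astrocytes, so cells such as microglia keep the gene. Both groups shared the floxed allele, no Cre-only control was analysed here, and the study's methods give male mice for this age. Expression was given as FPKM, which counts sequenced fragments relative to the length of the transcript and to the depth of the library. FPKM are thus corrected for length, so levels may be set side by side between genes. In whole tissue, fewer cells of a type and less RNA per cell cannot be told apart from RNA alone. By staining at this age, the study found neurons, astrocytes and microglia without significant change in number or distribution.

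IGF1 and IGF2 are secreted peptides related to insulin. Both act through the tyrosine kinase receptor encoded by *Igf1r*, which signals through the PI3K-AKT and MAPK pathways. *Igf2r* encodes a receptor that also carries mannose 6-phosphate tagged enzymes to lysosomes and clears IGF2 from the cell surface. Binding proteins hold the ligands in tissue fluid, where they can store them, deliver them or keep them from the receptor. *Igf2* is an imprinted gene expressed from the paternal allele in most tissues. In the adult brain its mRNA is known mainly from the choroid plexus and the leptomeninges, the thin membranes around the brain. IGF2 has been linked to memory in the rodent hippocampus.

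In the annotation of the files' build (mm9, the same as NCBIM37, GENCODE vM1), *Igf2* lies on the minus strand at chr7:149836673-149852721. *H19*, the imprinted RNA gene beside it, lies 72.6 kb away. *Igfbp2* (chr1:72871077-72899048, plus strand) and *Igfbp5* (chr1:72904506-72921458, minus strand) are neighbours that face each other end to end, 5.5 kb apart. The other genes lie at chr10:87321010-87399792 (*Igf1*), chr7:75097713-75371484 (*Igf1r*), chr17:12875272-12962530 (*Igf2r*), chr11:7106089-7113926 (*Igfbp3*), chr11:98902558-98913969 (*Igfbp4*), chr15:101974793-101979942 (*Igfbp6*) and chr5:77778265-77837070 (*Igfbp7*). *Igf2* shares 98 of its 5493 exonic bases with *Igf2as* on the opposite strand, and *Igfbp7* shares 85 of 1213 with *Polr2b*. Use of read strand in the counting is not given in the sources used here, so reads from these overlaps cannot be told apart.

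The promoters of the genes with the largest differences in either direction over all libraries are shown because the study considered guanine-rich promoter motifs. Its search covered genes lower in aged cKO mice, in a wider window on both sides of the start. The libraries here are from 3 months, and *Igf2* and *Igfbp2* had a higher mean log2 level in the cKO. The windows below are thus no counterpart of that search. Each is the 250 bases before a RefSeq start site (GRCm38.p6, a newer build than that of the files), written 5′ to 3′ on the gene's strand. Capitals mark the GC box GGGCGG or its reverse complement CCGCCC, a motif that SP and KLF factors can bind. For *Igf2* the most downstream of 4 listed starts is given (chr7:142657497-142657746, minus strand), for *Igfbp2* the first of 2 (chr1:72824230-72824479, plus strand) and for *Igfbp7* the only one (chr5:77408046-77408295, minus strand).
Igf2: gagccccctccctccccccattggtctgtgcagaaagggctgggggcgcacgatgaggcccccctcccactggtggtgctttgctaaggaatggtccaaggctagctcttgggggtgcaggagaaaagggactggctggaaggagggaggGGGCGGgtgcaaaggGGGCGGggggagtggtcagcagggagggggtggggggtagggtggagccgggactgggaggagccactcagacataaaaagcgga
Igfbp2: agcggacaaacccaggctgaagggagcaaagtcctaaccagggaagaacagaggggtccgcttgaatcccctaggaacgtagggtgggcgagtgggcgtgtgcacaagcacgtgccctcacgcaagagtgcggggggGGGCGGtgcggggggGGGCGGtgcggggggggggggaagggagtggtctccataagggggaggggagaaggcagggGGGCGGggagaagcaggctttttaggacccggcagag
Igfbp7: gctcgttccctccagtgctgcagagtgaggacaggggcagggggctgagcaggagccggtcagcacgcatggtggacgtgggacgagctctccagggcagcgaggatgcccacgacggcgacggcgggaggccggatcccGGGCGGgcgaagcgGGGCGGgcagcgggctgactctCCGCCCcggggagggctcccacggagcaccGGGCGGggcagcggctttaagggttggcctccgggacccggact
The window of *Igf2* holds 2 GC boxes, that of *Igfbp2* holds 3 and that of *Igfbp7* holds 4. The other 3 starts of *Igf2* hold 0, 0 and 1. *Igf1r* holds 2 and *Igf2r* 3, while the second start of *Igfbp2* and the starts of *Igf1*, *Igfbp3*, *Igfbp4*, *Igfbp5* and *Igfbp6* hold 0. In all, 6 of the 14 windows matched to the 10 genes hold the motif, and 32.7% of all 32851 windows of this length do. Windows with the motif belong to genes with a higher mean log2 level in the cKO (*Igf2* and *Igfbp2*) and with a lower one (*Igfbp7*, *Igf1r* and *Igf2r*). Apart from *Igf2*, which was not tested, these genes had overlapping groups and none passed correction. No binding was measured here.

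*Hdac1* itself was low in every library labelled cKO. Its level was 8.95 and 13.1 FPKM in control libraries and 1.95, 3.12 and 3.37 FPKM in cKO libraries, which is 17.6%, 28.3% and 30.5% of the control mean. On the log2(FPKM + 1) scale the difference was -1.66 (SE 0.21), and limma's p was 5.16e-05 with an adjusted p of 0.219 over all genes. With the 2 sets of libraries described next as a block the log2 difference was -1.74 and the adjusted p was 0.00389. All log2 differences are cKO minus control on this scale, which understates changes of genes near 1 FPKM.

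The libraries held 565363 to 636705 FPKM in total, and 12680 to 12745 genes reached 1 FPKM. Depth was estimated from the values at about 5140000 to 6770000 fragments per library, an approximation from 30 to 77 genes each. Repeated steps among low values split the libraries into 2 sets, control 1 with cKO 1 (set 1) and control 2 with cKO 2 and cKO 3 (set 2). Within a set 24.6% to 28.4% of low genes shared a step, against 3.71% to 4.64% between sets. What the sets stand for is not given in the sources used here, so the difference within each set is given beside the main results, without a test. Of 12740 genes tested, 555 (4.36%) had an unadjusted p under 0.05 and 1 (0.00785%) had an adjusted p under 0.05. That 1 gene was *Snora30*, a small nucleolar RNA named here after its values were seen. All 10 genes of a hippocampal marker list were above 0 in the libraries, with summed levels of 296 to 331 FPKM in the controls and 301 to 322 FPKM in the cKO.

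*Igf2* was the gene of the family that differed most. It measured 7.53 and 4.41 FPKM in control libraries and 12.8, 9.40 and 15.2 FPKM in cKO libraries. Every cKO library was above both controls, so the groups did not overlap. The same held for 11% of all tested genes, and *Igf2* was chosen for its rise. The means were 5.97 ± 2.21 FPKM (SD, n = 2) and 12.5 ± 2.92 FPKM (SD, n = 3), 2.09-fold apart. The log2 difference was 0.96 (SE 0.23), which placed *Igf2* at rank 12 among all increases. Its size depended on the control library. It was 0.69 between control 1 and cKO 1 and 1.26 in the other set, and it was 1.29 without control 1 and 0.63 without control 2. It lay between 0.82 and 1.14 when any cKO library was left out. These values rest on about 137 to 453 fragments per library.

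*Igf1*, the other ligand, showed no such gap. It measured 0.743 and 0.983 FPKM in control libraries and 0.977, 0.897 and 0.820 FPKM in cKO libraries, so the cKO values lay within the range of the 2 controls. Its mean of 0.884 FPKM was below the minimum of 1 FPKM for testing. In a fit without that minimum its log2 difference was 0.03 (95% interval -0.24 to 0.30, limma's adjusted p = 0.984). This level corresponds to about 33 to 47 fragments per library, which limits what could be detected. *Igf2* was therefore the more abundant ligand mRNA in every library, at 10.1 and 4.48 times the level of *Igf1* among controls and 13.1, 10.5 and 18.5 times in the cKO. Control 1 (10.1) and cKO 2 (10.5) were close in this ratio.

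**Figure D1:**
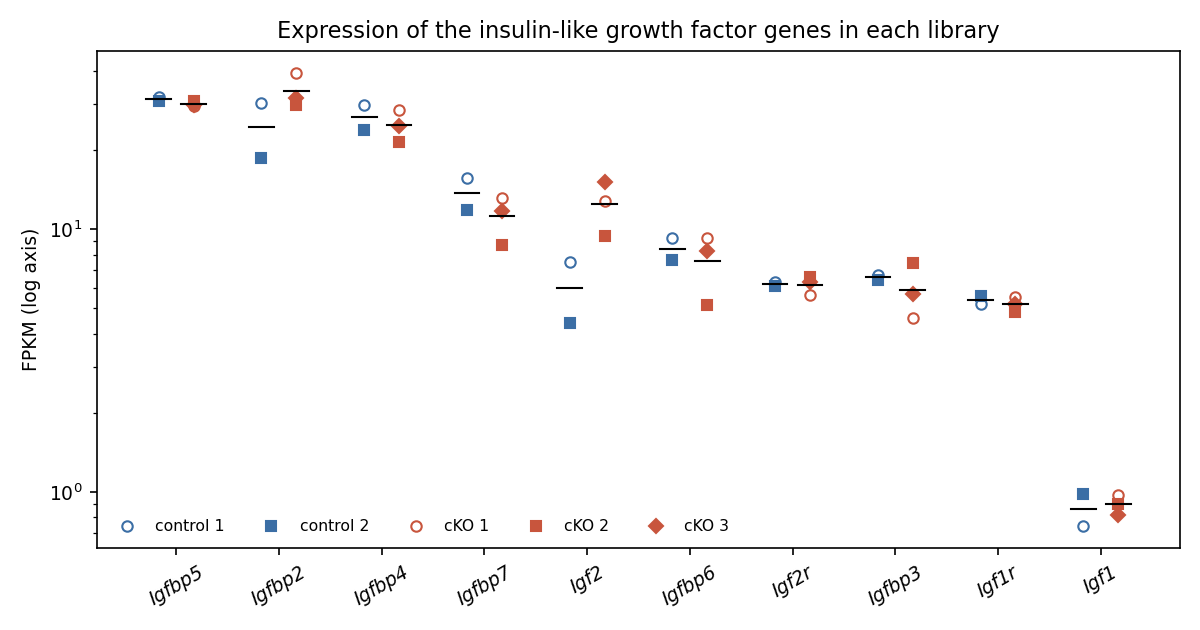
Level of each of the 10 genes in each of the 5 libraries, in FPKM on a log axis, with genes ordered by their mean over all libraries. Blue points are control and red points are cKO libraries, open points are the set of control 1 and cKO 1, and black bars are group means. *Igf2* is the gene whose groups do not overlap, with controls at 4.41 and 7.53 FPKM and cKO libraries from 9.40 to 15.2 FPKM. Of all tested genes, 11% lay wholly higher in the cKO.

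Neither receptor differed beyond the spread between libraries. *Igf1r*, the tyrosine kinase receptor, measured 5.19 and 5.57 FPKM in control libraries and 5.54, 4.83 and 5.19 FPKM in cKO libraries. The groups overlapped, with a log2 difference of -0.05 (95% interval -0.33 to 0.24, limma's adjusted p = 0.989). The 2 sets of libraries gave opposite signs, 0.08 and -0.13.

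*Igf2r*, the clearance receptor, measured 6.30 and 6.08 FPKM in control libraries and 5.62, 6.57 and 6.31 FPKM in cKO libraries. Its cKO libraries lay on both sides of the controls. The log2 difference was -0.0076 (95% interval -0.29 to 0.27, limma's adjusted p = 0.994), and its sign changed with quantile normalization and with the library left out. *Igf2r* stood at 1.21 and 1.09 times *Igf1r* among controls and at 1.01, 1.36 and 1.22 times in the cKO.

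*Igfbp2* was the nearest to *Igf2* among the other 9 genes. It encodes a binding protein abundant in the brain, choroid plexus and leptomeninges. It measured 30.3 and 18.6 FPKM in control libraries and 39.3, 29.8 and 31.6 FPKM in cKO libraries. The groups touched, since cKO 2 lay just under control 1. The means were 24.5 ± 8.25 FPKM (SD, n = 2) and 33.5 ± 5.05 FPKM (SD, n = 3). Its log2 difference was 0.47 (SE 0.20, 95% interval 0.0076 to 0.93), with limma's unadjusted p of 0.0471 and adjusted p of 0.955, so it did not pass correction over all genes. Each set of libraries gave a higher cKO level, by 0.36 and 0.69. The size turned on the controls here too, at 0.81 without control 1 and 0.13 without control 2. With the set as a block the log2 difference was 0.55 (unadjusted limma p of 0.000472, adjusted p of 0.253). It was above 0 under all 14 alternatives run.

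*Igfbp7* had the largest difference in the other direction in the fit of all libraries. It encodes a secreted protein of vessels that binds IGFs weakly. It measured 15.7 and 11.9 FPKM in control libraries and 13.2, 8.71 and 11.8 FPKM in cKO libraries. Control 1 was the highest and cKO 2 the lowest, with cKO 1 above control 2. Its log2 difference was -0.28 (95% interval -0.71 to 0.14, limma's adjusted p = 0.955). It was below 0 under all 14 alternatives, with -0.24 and -0.21 in the 2 sets, and it did not pass correction under any of them. Its size turned on single libraries, at -0.096 without control 1, -0.12 without cKO 2 and -0.47 without control 2. Without control 1 or without cKO 2, *Igfbp3* was further below 0, at -0.13 and -0.31. *Cldn5*, a tight junction gene of brain endothelium, was measured at 32.4 and 21.8 FPKM in control libraries and 23.8, 19.7 and 28.3 FPKM in cKO libraries. Of the 10 endothelial markers, 5 had a log2 difference above 0 and 5 below 0, and 1 (*Ly6c1*) was wholly lower in the cKO, beside 9.41% of all tested genes. The summed list overlapped between groups, at 92.7 to 93.1 FPKM against 76.8 to 107 FPKM. Its part in the values of *Igfbp7* was not tested.

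The other 4 binding proteins had overlapping groups and intervals that held 0. *Igfbp5*, which binds IGFs and matrix, was the steadiest, with 31.9 and 30.7 FPKM in control libraries and 29.6, 30.9 and 29.7 FPKM in cKO libraries. Its log2 difference was -0.06 (95% interval -0.27 to 0.16, limma's adjusted p = 0.976). Its neighbour *Igfbp2* thus differed by more than *Igfbp5* did in the same libraries, although this contrast between the genes was not tested. The ratio of *Igfbp2* to *Igfbp5* was 0.950 and 0.606 among controls and 1.33, 0.963 and 1.06 in the cKO.

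*Igfbp4*, which holds IGFs until it is cut by the protease PAPP-A, measured 29.8 and 23.8 FPKM in control libraries and 28.6, 21.6 and 24.8 FPKM in cKO libraries. Its log2 difference was -0.10 (95% interval -0.44 to 0.24) and turned to 0.06 without control 1. *Igfbp3*, the main carrier of IGFs in blood, measured 6.68 and 6.44 FPKM against 4.58, 7.42 and 5.68 FPKM, a difference of -0.15 (95% interval -0.56 to 0.25). For *Igfbp3* the sets differed, at -0.46 and 0.01, and the difference was -0.31 without cKO 2 and -0.012 without cKO 1. *Igfbp6*, which prefers IGF2 to IGF1, measured 9.24 and 7.62 FPKM against 9.29, 5.15 and 8.29 FPKM, a difference of -0.17 (95% interval -0.66 to 0.33) on about 29 to 70 fragments per library. Its lowest library was cKO 2, and without that library the difference was 0.06. Limma's adjusted p was 0.974 for each of these 3 genes.

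**Figure D2:**
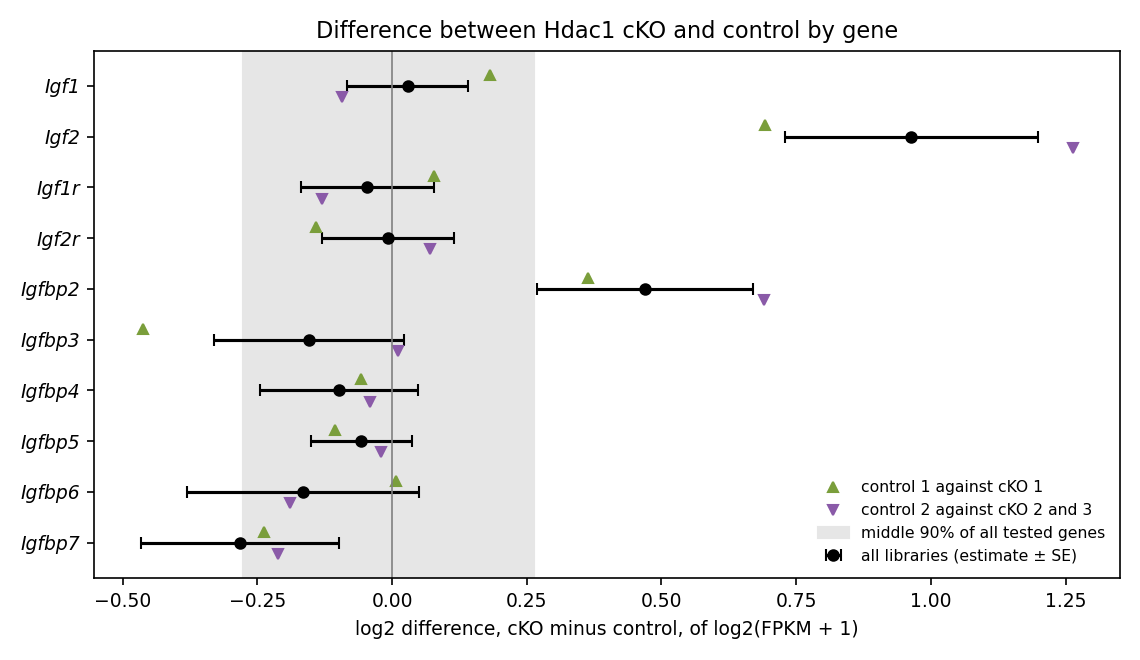
Difference between *Hdac1* cKO and control for each gene, on the log2(FPKM + 1) scale. Black points with bars are the estimate over all libraries ± SE (*Igf1* from the fit without a minimum level), triangles are the difference within each set of libraries, and the grey band holds the middle 90% of all tested genes, from -0.28 to 0.26. *Igf2* at 0.96 and *Igfbp2* at 0.47 lie to the right of the band and *Igfbp7* at -0.28 just to its left, and in all 3 both sets lie on 1 side of 0. For *Igf2* this follows from groups that do not overlap.

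Counted together, 8 of the 9 other genes were tested. None passed an adjusted p of 0.05, and 1 (*Igfbp2*) had an unadjusted p under 0.05, where 4.36% of all tested genes did. None of the 8 had groups that did not overlap, whereas over all tested genes 11% lay wholly higher and 9.41% wholly lower in the cKO. *Igfbp2* was above 0 and the other 7 were below 0 (*Igf2r* turned above 0 with quantile normalization), with a median of -0.08 (-0.06 with *Igf1* included) beside 0.01 for all tested genes, of which 53.7% were above 0. Rescaling to a common total moved the median of all genes to -0.05. The upper 95% bounds of the 9 genes ran from 0.14 (*Igfbp7*) to 0.93 (*Igfbp2*).

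The summed binding protein mRNA overlapped between groups, while the share held by *Igfbp2* did not. The 6 binding protein genes summed to 123.6 and 99.1 FPKM for control and to 124.5, 103.5 and 111.8 FPKM for cKO libraries. *Igfbp2* made up 24.5% and 18.8% of that sum in the control libraries, against 31.5%, 28.7% and 28.2% for cKO, which all lay above both controls. The sum of the other 5 was 93.3 and 80.5 FPKM against 85.2, 73.8 and 80.2 FPKM. The ratio of *Igf2* to *Igfbp2* was 0.249 and 0.237 among controls and 0.326, 0.316 and 0.482 in the cKO. That ratio restates the larger difference of *Igf2*, which was chosen for its rise, and is no further result. These ratios were formed after the values were known and carry no test.

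In order of mean level over the 5 libraries, the genes formed 3 tiers. *Igfbp5* (30.6 FPKM), *Igfbp2* (29.9 FPKM) and *Igfbp4* (25.7 FPKM) were highest, and neighbours among them overlapped in range. A gap without overlap separated them from *Igfbp7* (12.3 FPKM), *Igf2* (9.87 FPKM), *Igfbp6* (7.92 FPKM), *Igf2r* (6.18 FPKM), *Igfbp3* (6.16 FPKM) and *Igf1r* (5.26 FPKM), among which each neighbour overlapped the next. *Igf1* stood alone at the bottom. *Igf2* ranked 6 and 9 of the 10 genes among controls and 5, 4 and 4 among cKO libraries, while *Igfbp2* ranked 2 and 3 among controls and 1, 2 and 1 in the cKO.

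The pattern of *Igf2* over the libraries was compared with that of the other 12739 tested genes, by the root mean square difference between log2(FPKM + 1) values centred on each gene's mean. The median gene differed by 0.573. The nearest were *Rpl26*, a ribosomal protein gene (0.143), *Pcolce*, an enhancer of procollagen processing (0.172), *Cox6b2*, a cytochrome c oxidase subunit gene (0.207), *Tgfbi*, a matrix protein gene (0.247), and the histone gene *Hist1h2bf* (0.260). *Rpl26* belongs to a family with many near-identical pseudogenes, so its level is uncertain. *Cox6b2* was listed at 0 in control 2. *Igfbp2* ranked 23 (0.314). The other tested genes of the family ranked from 4962 (*Igfbp4*) to 11855 (*Igfbp3*). These measures rest on 5 libraries and on the values by which *Igf2* was chosen. Genes that are higher in the cKO and low in control 2 therefore rank near it by construction, and the order is a description only.

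Leptomeningeal markers had higher mean log2 levels in the cKO libraries. All 12 of the 15 markers that were tested had a log2 difference above 0, beside 53.7% of all tested genes, with a median of 0.17. In 3 of the 12 (*Slc6a20a*, *Ogn* and *Slc13a4*) every cKO library was above both controls, 25% beside 11% of all genes. For *Slc6a20a* the log2 difference was 0.35 (unadjusted limma p of 0.0341) and for *Ogn* 0.34 (unadjusted limma p of 0.0447), each with an adjusted p of 0.955. Neither stayed under an unadjusted p of 0.05 with a common total, without control 2 or without cKO 1. The summed list was 59.3 and 66.8 FPKM in control libraries and 67.3, 75.2 and 76.5 FPKM in cKO libraries. The largest part of that sum is *Dcn*, a matrix proteoglycan gene, at 28.9 and 44.4 FPKM against 33.7, 45.8 and 39.2 FPKM. Without *Dcn* the sums were 30.4 and 22.4 FPKM against 33.5, 29.4 and 37.3 FPKM, so that control 2 was the lowest, as it was for *Igf2* and *Igfbp2*. The count above 0 was 6 of 12 between control 1 and cKO 1, 11 of 12 in the other set, and 6 of 12 without control 2. It was 8 of 12 without cKO 3 and 8 of 12 with replicate number as a block. No marker of the list was at 0 in all libraries. In the order of likeness to *Igf2*, 10 of the 12 ranked from 18 (*Slc13a4*) to 608 (*Ogn*), while *Lum* ranked 8805 and *Dcn* 11017. These ranks restate the higher cKO levels and the low control 2 given above, and add no separate evidence. The part of leptomeningeal RNA in the values of *Igf2* and *Igfbp2* was not tested.

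Choroid plexus markers followed another order. *Ttr*, the defining transcript of that tissue, measured 157 and 1.33 FPKM in control libraries and 67.9, 589 and 20.7 FPKM in cKO libraries, a spread far wider than any gene of the family. The library with most *Ttr* (cKO 2) had the lowest *Igf2* of the cKO group, and cKO 3, with the highest *Igf2*, had the lowest *Ttr* of that group. The summed list ranged from 9.65 to 176 FPKM in the controls and from 31.6 to 620 FPKM in the cKO, and without *Ttr* from 8.32 to 19.6 FPKM and from 10.8 to 30.6 FPKM. Of 15 markers 5 were tested, 3 above 0 (0 of 5 in set 1, with a median of -0.35, and 4 of 5 in set 2, with a median of 0.59), beside 53.7% of all tested genes, and none with an unadjusted p under 0.05. No marker was at 0 in all libraries. Control 2 was the lowest library for *Ttr* as for *Igf2*, and this shared position was not tested.

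**Figure D3:**
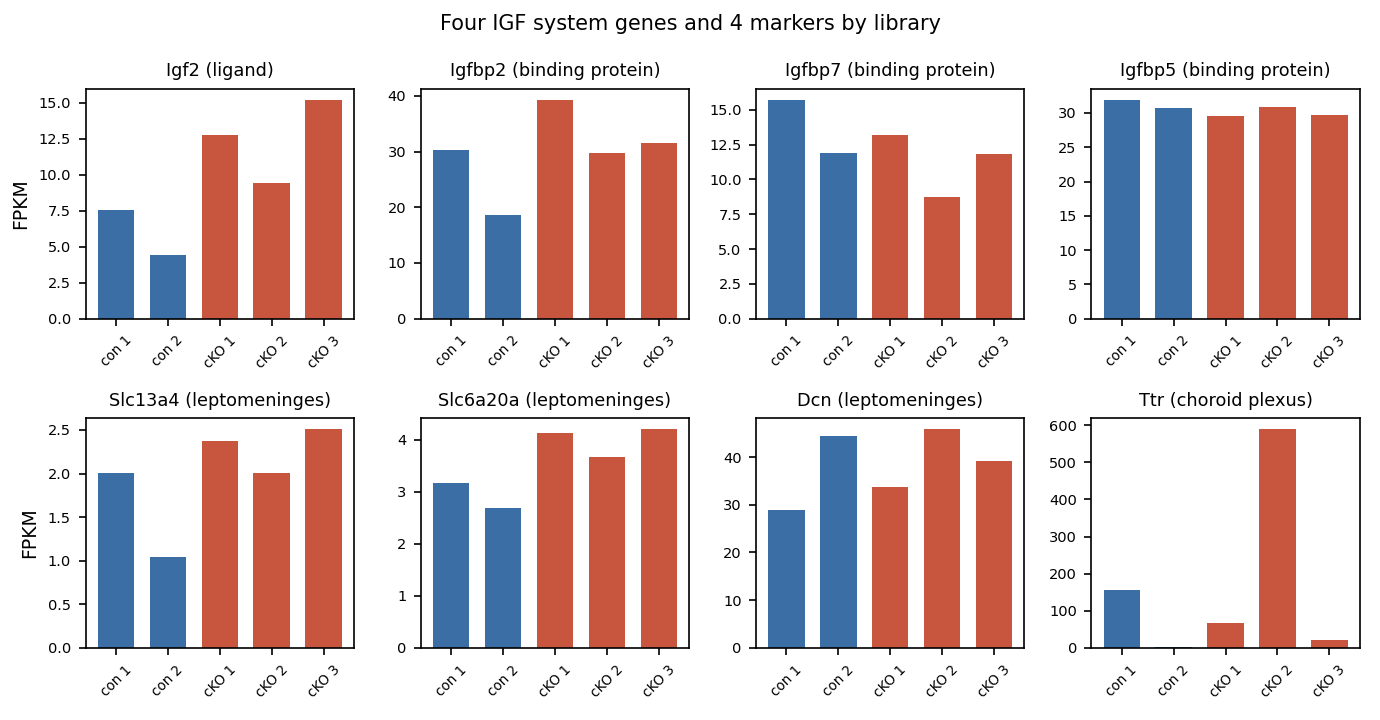
FPKM in each library for *Igf2*, 3 binding protein genes, 3 leptomeningeal markers and the choroid plexus marker *Ttr*, with blue bars for control (con) and red bars for cKO libraries. Each panel has its own axis from 0. *Slc13a4*, *Slc6a20a* and *Ttr* are lowest in control 2 like *Igf2*. *Dcn* (45.8 FPKM) and *Ttr* (589 FPKM) are highest in cKO 2, and *Ttr* is at 1.33 FPKM in control 2.

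Among the other cell types, astrocyte markers summed to 2715 and 2733 FPKM for control and to 2955, 3002 and 3114 FPKM for cKO libraries, with 7 of 10 genes above 0 and 6 wholly higher, beside 53.7% and 11% of all tested genes. *Aldh1l1* (-0.022), *Sox9* (-0.040) and *Aldoc* (-0.041) were below 0. Of the 6, *Aqp4*, the water channel gene of astrocyte endfeet, measured 54.4 and 54.4 FPKM among controls against 89.4, 98.4 and 94.6 FPKM, and had a log2 difference of 0.78 with a limma adjusted p of 0.175, and of 0.0187 with the library set as a block. Neuron markers summed to 2218 and 2380 FPKM against 2133, 2168 and 2292 FPKM, and 9 of 10 had a log2 difference below 0, beside 46.3% of all tested genes. Of the 10, 3 (*Rbfox3*, *Nefm* and *Stmn2*) were wholly lower and 1 (*Map2*) wholly higher, beside 9.41% and 11% of all tested genes. Oligodendrocyte markers summed to 1715 to 1984 FPKM against 1705 to 2189 FPKM, with 9 of 10 above 0 and 2 (*Opalin* and *Mal*) wholly higher, but only 4 of 10 were above 0 in set 1 (median -0.0039) against 9 of 10 in set 2 (median 0.25). Interneuron markers summed to 405 to 474 FPKM against 378 to 436 FPKM, with 3 of 8 above 0 and 2 (*Slc32a1*, the GABA vesicle transporter gene, at -0.54, and *Sst* at -0.16) wholly lower, beside 9.41% of all tested genes, and with limma adjusted p-values of 0.955. Sums of mural cells (83.6 to 86.1 against 81.4 to 96.1 FPKM, 7 of 9 above 0) and microglia (267 to 314 against 266 to 321 FPKM, 5 of 10 above 0) overlapped between groups. Of the 9 mural genes, 2 (*Acta2* and *Myh11*) were wholly higher and 1 (*Cspg4*) wholly lower. Of the 10 microglial genes, 1 (*Itgam*) was wholly lower. The shares of all tested genes were 11% wholly higher and 9.41% wholly lower. In sets 1 and 2 the counts above 0 were 8 and 8 of 10 for astrocytes, 2 and 1 of 10 for neurons, 3 and 3 of 8 for interneurons, 6 and 5 of 9 for mural cells, 5 and 3 of 10 for microglia and 3 and 6 of 10 for endothelium. Whether any of these moved the family's values was not tested.

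Genes around the system were drawn from 6 lists of 67 genes, of which 50 were tested. None had an unadjusted p under 0.05 in limma, where 4.36% of all tested genes did, and none passed correction. Of the 50, 23 were above 0 and 27 below, with a median of -0.03. The groups of 1 gene (2%) lay wholly higher in the cKO, beside 11% of all genes, and those of 8 genes (16%) wholly lower, beside 9.41%.

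On the insulin side, *Insr*, the insulin receptor, was measured at 5.88 and 6.65 FPKM in control libraries and 6.18, 6.70 and 6.91 FPKM in cKO libraries (log2 difference 0.06, limma's adjusted p = 0.981). *Igf1r* stood at 0.882 and 0.838 times *Insr* among controls and 0.896, 0.721 and 0.751 times in the cKO. The insulin gene *Ins1* was listed at 0 in every library, and *Ins2* was listed above 0 in cKO 1 alone, at 1.12 FPKM. Among regulators of binding proteins, *Htra1*, a protease that can cut them, was the 1 gene tested of 8. It measured 106 and 103 FPKM against 108, 93.2 and 114 FPKM, with a log2 difference of 0.0049 that turned negative under several alternatives.

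The receptor signalling list held 35 tested genes, 13 above 0 and 22 below. Its smallest p belonged to *Gsk3a*, a kinase that AKT inhibits, at 58.7 and 50.5 FPKM in control libraries and 48.4, 43.2 and 47.6 FPKM in cKO libraries. The groups did not overlap, and the log2 difference was -0.23 (unadjusted limma p of 0.0672, adjusted p of 0.955). It was -0.12 without control 1 and -0.34 without control 2. Its relative *Gsk3b* measured 22.6 and 20.8 FPKM against 20.2, 17.7 and 18.0 FPKM (log2 difference -0.21, limma's adjusted p = 0.955). *Foxo1*, a transcription factor that AKT keeps out of the nucleus, measured 5.77 and 5.96 FPKM against 5.39, 4.53 and 4.12 FPKM (log2 difference -0.28, limma's adjusted p = 0.955). All 3 were wholly lower, which by itself makes them lower within both sets. The sizes in sets 1 and 2 were -0.27 and -0.15 for *Gsk3a*, -0.15 and -0.21 for *Gsk3b*, and -0.08 and -0.39 for *Foxo1*. *Pik3cb* and *Pik3r1* (subunits of PI3K), *Tsc2* (a brake on mTOR), *Mapk3* (a MAP kinase) and, from the growth hormone list, *Stat5b* were also wholly lower, with log2 differences of -0.15 to -0.05. *Rps6kb1*, a kinase below mTOR, was wholly higher, with a log2 difference of 0.07.

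At the *Igf2* locus and for its mRNA, *H19*, *Igf2as*, *Igf2bp1* and *Igf2bp2* were at or below 0.223 FPKM in every library, so the neighbouring imprinted RNA could not be followed at this depth. *Ctcf*, the insulator protein gene, had a log2 difference of -0.08 and *Plagl1*, an imprinted zinc finger gene, -0.07. *Airn*, the antisense RNA at *Igf2r*, measured 1.72 and 0.139 FPKM against 1.94, 0.765 and 1.39 FPKM. Its log2 difference of 0.40 (limma's adjusted p = 0.956) became -0.23 without control 2 and 1.02 without control 1. In the growth hormone list, which acts upstream of *Igf1* in liver, *Gh* was listed at 0 in every library, while *Socs2* differed by 0.22 (0.075 without cKO 2 and 0.35 without control 2), *Stat5b* by -0.15 (-0.074 without cKO 3) and *Ghr* by 0.05. Of the genes that make and read the mannose 6-phosphate tag, *Gnptg* differed by 0.11 (0.016 without control 1), *M6pr* by 0.03 and *Nagpa* by -0.03, each with a limma adjusted p of at least 0.965.

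**Figure D4:**
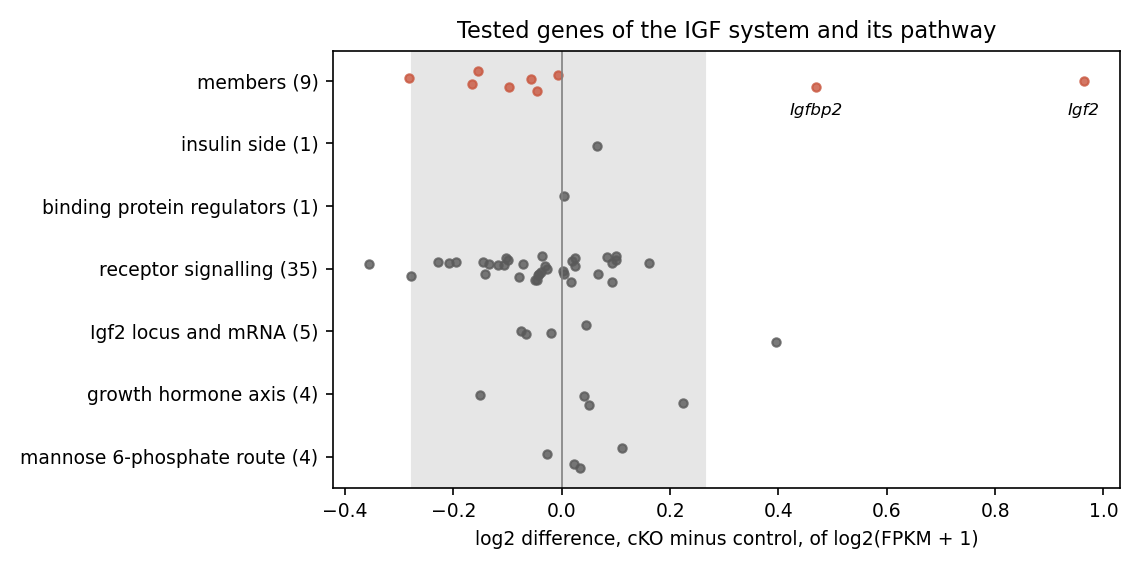
Log2 difference, cKO minus control, of each tested gene of the family (red) and of the 6 lists around it (grey), with the number of tested genes in brackets and the middle 90% of all tested genes as a grey band. In this fit *Igf2* (0.96) and *Igfbp2* (0.47) stand to the right of every gene of the lists, where the highest is *Airn* at 0.40. That order depended on the setting. With a pseudocount of 0.1, *Airn* was at 1.07, beside *Igf2* at 1.07 and *Igfbp2* at 0.49. With a common total, *Airn* at 0.51 was above *Igfbp2* at 0.41. The receptor signalling genes lie between -0.36 and 0.16.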

How the data were processed

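RNA was extracted from hippocampal tissue, an Illumina TruSeq total RNA kit was used for the libraries, and the authors aligned the reads with TopHat and derived FPKM with Cufflinks 2.0.0 on mm9. The deposited values are these FPKM, 1 file per library, and no count was given, so no count test was run and depth is only estimated. Of 23361 symbols, 90.8% matched the annotation. Groups and replicate numbers came from the sample titles. The study counts the samples of each group as mice, so replicates were taken as separate animals.

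A mean of 1 FPKM or more was required for testing. The test was limma 3.58.1 under R 4.3.3, with lmFit and trended eBayes, on log2(FPKM + 1), genotype as the only term, two-sided, with Benjamini-Hochberg adjustment over 12740 genes. Intervals are 95% from that fit. The procedure was tested on simulated data.

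Low genes (mean under 0.3 FPKM) gave the sets of libraries. A pair sharing more than 10% of ratios inside 1 window of 0.05 log2 units was placed in 1 set. GC boxes were searched on both strands.

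The members and all lists were chosen with earlier results of these data known. Named genes were *Hdac1*, the 10 members, up to 3 tested genes of smallest p per list, *Ttr*, *Dcn* and *Cldn5*, list genes at 0 in every library, and the 5 tested genes most like *Igf2*, leaving out microRNA, snoRNA and predicted symbols. The genes of these lists named beyond that rule were named after their values were seen. Alternatives were a pseudocount of 0.1, no minimum or a minimum of 5 FPKM, median-ratio size factors, a common total, quantile normalization, no variance trend, blocks for replicate number or library set, and leaving out each library. The count of leptomeningeal markers above 0 was recomputed under these alternatives after the data were seen.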

Additional observations from a re-analysis of the deposited data

How the results depend on the processing

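Across all 14 alternatives no member tested (*Igf2* was not) and no gene around the system passed an adjusted p of 0.05, and the median of the other 9 genes (with *Igf1* where it was fitted) lay between -0.14 and -0.03. The difference of *Igf2* ranged from 0.63 to 1.29 on the log2 scale. The number of members with an unadjusted p under 0.05, 1 in the reported fit, was 0 with no minimum, size factors, a common total, quantile normalization or no variance trend, and 0 to 1 with a library left out (1 without control 1). Genes around the system with an unadjusted p under 0.05, 0 in the reported fit, numbered 3 with a common total (*Gsk3a*, *Gsk3b*, *Foxo1*), 3 with the library set as a block (*Gsk3a*, *Gsk3b*, *Foxo6*) and 0 to 2 with a library left out. *Hdac1* passed correction with the set as a block, at -1.74, and ranged from -1.91 to -1.41 with a library left out.

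Control and cKO samples share replicate numbers 1 and 2. Their deviations from the group mean correlated at 0.40 and 0.27. With 2 controls, the deviations of control 1 mirror those of control 2, so these values are not separate evidence. Control 2 and cKO 3, with unlike numbers, correlated at 0.15. Each of these pairs also lies inside a library set, and the numbers are not stated to mark anything shared. With the replicate block the difference of *Hdac1* was -1.77 (limma's adjusted p = 0.0115), 2 members had an unadjusted p under 0.05 (*Igfbp2* at 0.51 and *Igfbp7* at -0.32), 3 genes around the system did (*Gsk3a*, *Foxo6*, *Map2k2*), and the difference of *Igf2* was 0.82. *Aqp4* passed correction (adjusted p = 0.0249), and the oligodendrocyte markers *Mbp*, *Mog* and *Cldn11* turned below 0 and joined *Mag* there. The leptomeningeal markers *Slc6a13*, *Islr*, *Bgn* and *Bmp6* also turned below 0. The signs of *Htra1* (-0.056) and *Plagl1* (0.018) turned. In that fit cKO 3 has no control with its number.

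Signs of small differences also turned, and the cause was not tested. *Igf2r* was 0.0039 with quantile normalization. *Htra1* was -0.011 with size factors, -0.062 with a common total and -0.044 with quantile normalization. A common total gave -0.0044 for *Ghr* and -0.032 for *M6pr*. With a library left out, *Igf1r* ranged from -0.089 to -0.0029 and *Igfbp5* from -0.083 to -0.031, while *Igf2r* ranged from -0.048 to 0.049, *Igfbp4* from -0.26 to 0.058, *Igfbp6* from -0.31 to 0.058, *Insr* from -0.011 to 0.14, *Htra1* from -0.056 to 0.089, *Airn* from -0.23 to 1.02, *Ctcf* from -0.17 to 0.019, *Plagl1* from -0.13 to 0.018, *Ghr* from -0.050 to 0.15, *M6pr* from -0.043 to 0.11 and *Nagpa* from -0.071 to 0.030. Leaving out a library leaves 1 control in 2 of the fits, which then assume that it varies like the others. A minimum of 5 FPKM left no value for *Airn*, *Plagl1*, *Stat5b*, *Ghr* and *Nagpa*. Depth limits *Igf1* and *Igfbp6* most.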

Other observations

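Members of the binding protein family that are not part of the group described above were near or at the limit of these libraries. *Igfbp1*, a binding protein of liver, was listed at 0 in both controls and cKO 3 and reached at most 0.268 FPKM elsewhere. *Igfals*, which stabilises IGF complexes in blood, was above 0 in cKO 2 alone, at 0.0933 FPKM. *Igfbpl1*, a relative of *Igfbp7*, measured 0.514 and 0.660 FPKM in control libraries and 0.836, 0.567 and 1.33 FPKM in cKO libraries. The PAPP-A genes, which encode proteases of *Igfbp4* and *Igfbp5*, stood at 0.130 to 0.181 FPKM (*Pappa*, controls) against 0.168 to 0.233 FPKM, and at 0.158 to 0.235 FPKM (*Pappa2*, controls) against 0.0796 to 0.260 FPKM. Their inhibitor genes were a little higher, with *Stc1* at 0.748 and 1.22 FPKM against 0.928, 0.763 and 0.790 FPKM and *Stc2* between 0.223 FPKM (cKO 2) and 1.28 FPKM (cKO 3). All lay below the minimum for testing.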
